A study of Homo sapiens with 16 samples.

Results

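The MYC domain of chromosome 8q24 was taken as the stretch from 127 to 130 Mb of chromosome 8 (hg19), the 3 Mb that hold the protein-coding genes MYC, POU5F1B and LRATD2. Its members were all AIB1 clusters of 4 deposited lists that overlapped this stretch, which came to 154 of 1378 list entries and to 122 of 897 distinct regions. By list these were 5 of 99 clusters in the MCFDCIS-named D4 list, 61 of 651 in the MCFDCIS-named parental list, 21 of 138 in the MCF10A-named D4 list and 67 of 490 in the MCF10A-named parental list. The domain was chosen by its number of clusters in these same lists, so its counts, widths, ranks and sharing are given as descriptions and carry no test.

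AIB1, encoded by NCOA3, is a coactivator that nuclear receptors and other transcription factors recruit to enhancers and promoters, and the series title calls AIB1D4 an isoform of it. Its genomic binding was mapped by chromatin immunoprecipitation sequencing (ChIP-seq) in 4 groups of 3 ChIP samples and 1 input sample each: the D4 counterpart of MCFDCIS, parental MCFDCIS, the D4 counterpart of MCF10A and parental MCF10A. MCF10A is a non-tumorigenic human mammary epithelial line and MCFDCIS a line derived from it that models ductal carcinoma in situ, and all were grown in medium with horse serum, insulin, cholera toxin, hydrocortisone and EGF and used at passages 10 to 15. The labels do not say how the D4 lines were made, whether each is a single clone or whether the ChIP samples are separate cultures. MCF10A is known to carry extra copies of the MYC region; DNA copy number was not measured here, and its part in any count below was not tested.

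The authors deposited 1 list per group with no value per replicate, so no value below has a replicate error. Sample descriptions cite the MCF10A-named lists for MCFDCIS samples and the MCFDCIS-named lists for MCF10A samples, while D4 and parental status match. The lists therefore keep the names they carry and were not assigned to a cell line. For each cluster the files give a position and a score, which is the authors' own value and is left undefined in the files and labels; it served only to rank clusters within a list. The lowest score was between 7.0 and 7.11 in each of the 4 lists, and sequencing depth is unknown. Bound regions carry no expression values, so the cell type could not be checked against marker genes.

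MYC encodes a transcription factor that drives growth and proliferation and is among the most often amplified genes in cancer. It lies in a wide gene desert where distant enhancers, many within long noncoding RNA (lncRNA) genes, contact the MYC promoter, and where inherited variants for breast, prostate and colorectal cancer map. POU5F1B is a retrogene copy of the pluripotency factor POU5F1 inside that desert, and LRATD2, formerly FAM84B, belongs to the LRAT domain family. PVT1, the lncRNA gene downstream of MYC, is often gained together with it.

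The 3 coding genes stood among 42 annotated genes of the domain, 22 of them lncRNA genes (GENCODE release 44 on GRCh37). LRATD2 spans chr8:127564688-127570723 on the minus strand. POU5F1B spans chr8:128334428-128432311 on the plus strand, with the start of its canonical transcript at 128428112. MYC spans chr8:128747680-128755197 on the plus strand, with its canonical transcription start site (TSS) at 128748477.

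AIB1 clusters filled the middle of the domain and left its ends empty. All members lay between positions 127444651 and 129207110, from 1300.9 kb upstream of the MYC TSS to just past the telomeric end of PVT1. The interval between the LRATD2 and POU5F1B start sites held 4 MCFDCIS-named D4, 28 MCFDCIS-named parental, 12 MCF10A-named D4 and 26 MCF10A-named parental clusters. The interval from POU5F1B to MYC held 1, 9, 4 and 17 in the same order of lists, and that from the MYC TSS to the end of PVT1 held 0, 16, 3 and 19. Between the end of PVT1 and 130 Mb, where the lncRNA genes LINC00824 and CCDC26 lie, there were 0, 1, 1 and 2. The MCFDCIS-named D4 list thus stopped short of MYC, while the other 3 lists reached across the inner intervals.

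**Figure D1:**
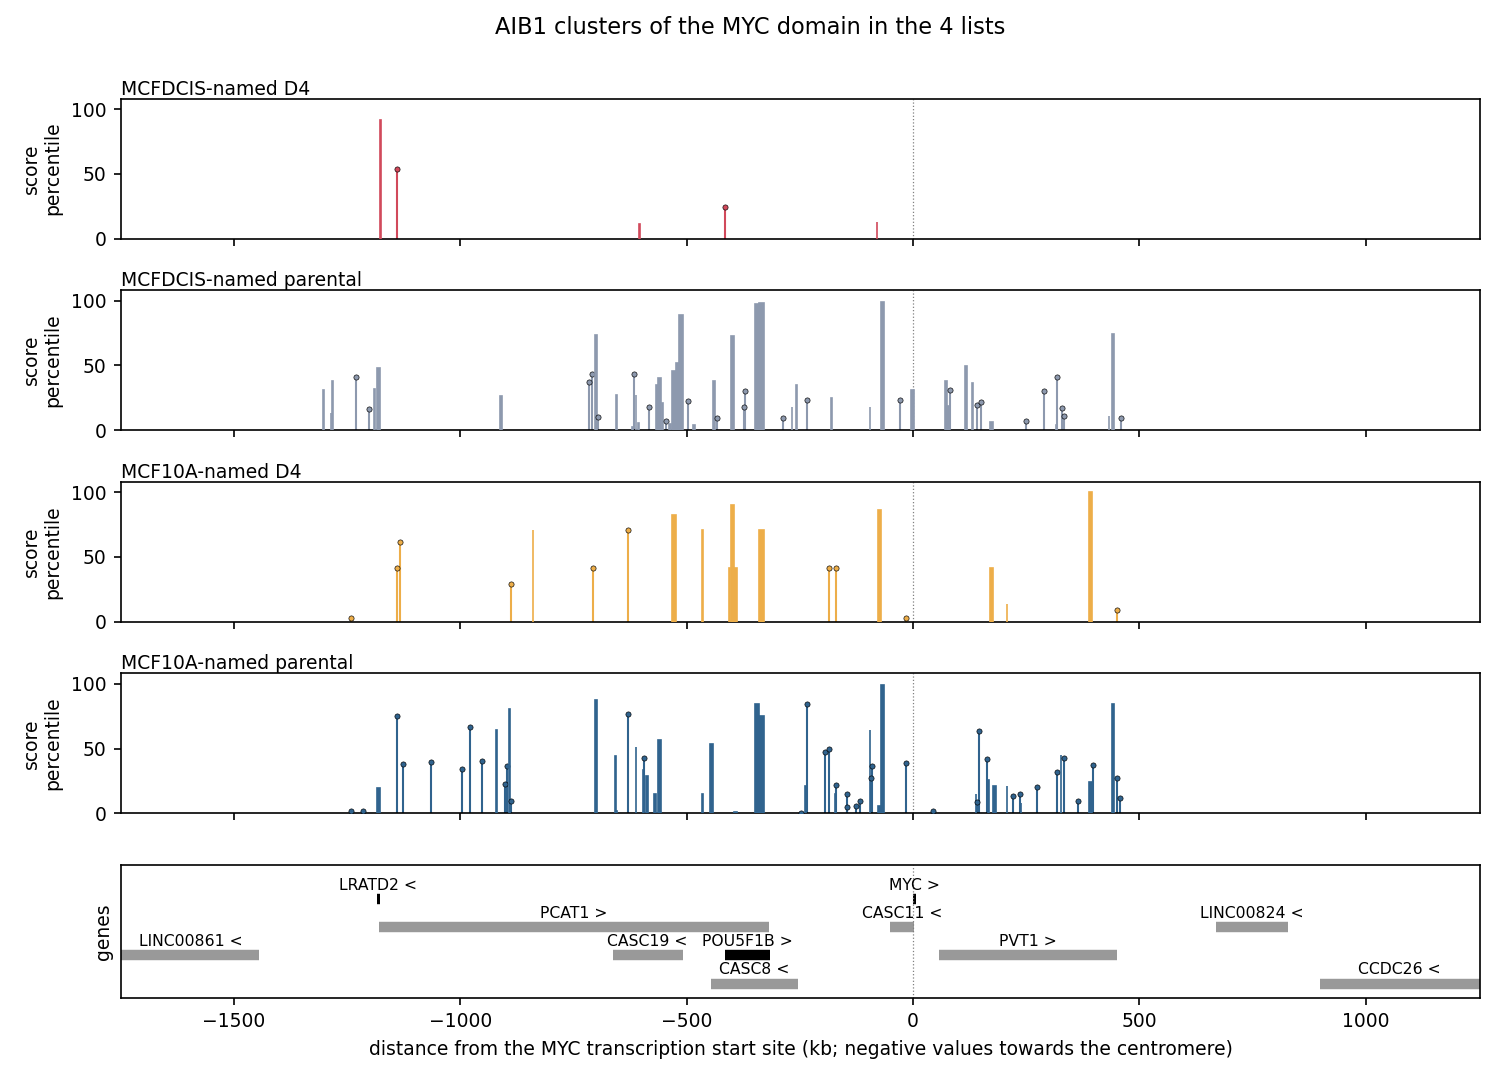
Position of the 122 distinct AIB1 clusters by list along the 3 Mb domain, as distance from the MYC TSS in kb, with the percentile of the score within its list as height (0 lowest, 100 highest). Bars are clusters over 500 bp, drawn to scale with a thin outline, and pins are those up to 500 bp; the bottom track shows selected genes with the coding genes in black, and the stretch beyond PVT1 is nearly empty in all 4 lists.

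The domain was denser than the rest of the genome, which the choice of the domain fixes. Stretches without clusters lay on both sides of it, though the centromeric ones of the parental lists were not unusually long. It held 1.67, 20.3, 7 and 22.3 clusters per Mb in the MCFDCIS-named D4, MCFDCIS-named parental, MCF10A-named D4 and MCF10A-named parental lists, against 0.0327, 0.206, 0.0408 and 0.147 per Mb elsewhere on the 20 chromosomes with clusters. The members closest to the edges in the parental lists were chr8:127444651-127447610 and chr8:129207101-129207110 (MCFDCIS-named). The nearest clusters outside in that list were a 10 bp cluster 0.98 Mb towards the centromere and a 260 bp cluster 5.57 Mb towards the telomere. In the MCF10A-named parental list the same outside clusters were 1.04 Mb and 5.58 Mb away. The median distance between neighbours in the rest of these lists was 672 kb (MCFDCIS-named) and 902 kb (MCF10A-named), not far below the centromeric distances. In the D4 lists the nearest outside clusters on the centromeric side were 10.2 Mb (MCFDCIS-named) and 69.4 Mb (MCF10A-named) away. Each D4 list had only 2 clusters elsewhere on chromosome 8.

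The share of a list that fell in the domain was 5.05% (exact 95% interval 1.66 to 11.4) in the MCFDCIS-named D4 list against 9.37% (7.24 to 11.9) in its parental list. It was 15.2% (9.67 to 22.3) in the MCF10A-named D4 list against 13.7% (10.8 to 17.04) in its parental list. The intervals cover the number of clusters only. The domain was chosen by its counts in these lists, so they make no test of D4 against parental. By covered length the domain made up 4.31%, 38.1%, 39.5% and 31.6% of the 4 lists in the same order, that is 3.05, 157.2, 55.9 and 110.2 kb.

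LRATD2 had a promoter cluster in both parental lists and in neither D4 list, where a promoter is the stretch within 1 kb of a TSS. This cluster, chr8:127565701-127571260, is 5560 bp wide and covers most of the gene and an exon of the overlapping lncRNA gene PCAT1. It scored 18.9 and ranked 339 of 651 in the MCFDCIS-named parental list, and scored 8.19 and ranked 396 of 490 in the MCF10A-named parental list. The MCFDCIS-named D4 list instead held chr8:127572301-127573310, 1.58 kb from the LRATD2 TSS, which scored 13.1 and ranked 9 of 99. No other list held that region. In the MCF10A-named D4 list the nearest cluster was 39.1 kb away. For parental clusters, here and below, absence from a D4 list was usual. Over the whole lists, 65 of 651 MCFDCIS-named (9.98%) and 67 of 490 MCF10A-named (13.7%) parental clusters were in the D4 list of that name.

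POU5F1B had no cluster over its canonical transcript in any list, and its nearest cluster was the same in 3 lists. This was chr8:128409351-128418660, 9310 bp wide, 9.45 kb upstream of the canonical TSS and overlapping the lncRNA gene CCAT2. It ranked 31 of 138 in the MCF10A-named D4 list with a score of 9.24, a value shared by 22 clusters of that list. It ranked 11 of 651 in the MCFDCIS-named parental list with 132.5, and 121 of 490 in the MCF10A-named parental list with 19.3. The neighbouring chr8:128399501-128409010, 9510 bp wide and the widest member, was in both parental lists (rank 16 in the MCFDCIS-named and 79 in the MCF10A-named list) and in neither D4 list. Together these clusters formed a stretch of 19.2 kb with a break under 1 kb. Further upstream within the POU5F1B gene, chr8:128346801-128353410 (6610 bp) ranked 14 of 138 in the MCF10A-named D4 list and 176 of 651 in the MCFDCIS-named parental list. The next cluster, chr8:128353501-128360060 (6560 bp), ranked 66 of 138 in the MCF10A-named D4 list and 486 of 490 in the MCF10A-named parental list. The MCFDCIS-named D4 list had its nearest cluster 94.5 kb away, the 60 bp chr8:128333601-128333660, which lies within 1 kb of an alternative POU5F1B start and ranked 74 of 99.

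MYC had a promoter cluster in 1 list, the MCFDCIS-named parental one. This cluster, chr8:128744901-128750410, is 5510 bp wide and overlaps exons of MYC and of CASC11, a lncRNA gene on the opposite strand. Its score of 13.1 ranked 452 of 651, at the 30.6th percentile, so it was not among the stronger clusters of its list. Both MCF10A-named lists had their nearest cluster 15.8 kb upstream, the 10 bp chr8:128732651-128732660 in a CASC11 intron. That cluster ranked 133 of 138 in the D4 list and 300 of 490 in the parental list. In the MCFDCIS-named D4 list the nearest was chr8:128668751-128669910, 78.6 kb upstream, which ranked 86 of 99.

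Upstream of MYC, both parental lists held one of their 10 highest-scored clusters of the whole genome. This cluster, chr8:128678501-128684910, is 6410 bp wide, lies 63.6 kb upstream of the MYC TSS and overlaps an exon of an unnamed lncRNA gene (ENSG00000286010). It scored 134.4, rank 10 of 651, in the MCFDCIS-named parental list and 80.4, rank 5 of 490, in the MCF10A-named parental list, and neither D4 list held it. The MCF10A-named D4 list held the region next to it, chr8:128671951-128677310, at rank 19 of 138. That neighbour was also in the MCF10A-named parental list, where its score of 7.43 ranked 461 of 490. Within 100 kb of the MYC TSS there were 1, 7, 2 and 7 clusters in the MCFDCIS-named D4, MCFDCIS-named parental, MCF10A-named D4 and MCF10A-named parental lists.

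PVT1 held 0 clusters of the MCFDCIS-named D4 list, 16 of the MCFDCIS-named parental list, 3 of the MCF10A-named D4 list and 18 of the MCF10A-named parental list. The highest-scored cluster of the whole MCF10A-named D4 list lay in a PVT1 intron, 388.7 kb downstream of the MYC TSS. This was chr8:129137201-129142710, 5510 bp wide, with a score of 42.1. The MCF10A-named parental list held the same region at 8.58, rank 366 of 490, and the MCFDCIS-named lists did not hold it. Over a PVT1 exon, chr8:128918101-128924760 (6660 bp) ranked 66 of 138 in the MCF10A-named D4 list and 609 of 651 in the MCFDCIS-named parental list. Near the telomeric end of PVT1, chr8:129188151-129192160 was in both parental lists with scores of 35.7 (MCFDCIS-named, rank 168) and 26.0 (MCF10A-named, rank 78).

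The lncRNA genes between LRATD2 and POU5F1B, several of them named for cancer or cancer susceptibility, held many of the remaining clusters. PCAT1, whose annotated span runs across nearly this whole interval and overlaps the other genes there, held 4, 29, 12 and 27 clusters in the MCFDCIS-named D4, MCFDCIS-named parental, MCF10A-named D4 and MCF10A-named parental lists. CASC19 held 1, 14, 2 and 9, and CASC8 held 1, 10, 4 and 4. In a PCAT1 intron, chr8:128046151-128051560 (5410 bp) was in both parental lists, at rank 175 of 651 in the MCFDCIS-named and 61 of 490 in the MCF10A-named list. The regions chr8:127908901-127910210, chr8:128118351-128118360 and chr8:128282301-128285210, also in PCAT1 introns, tied with the CCAT2 cluster at rank 31 of the MCF10A-named D4 list. In CASC19 the MCFDCIS-named parental list had 3 clusters less than 1 kb apart that spanned 23.7 kb, chr8:128216701-128240360. The last of them, chr8:128232551-128240360, was the highest at 58.6, rank 74 of 651. The MCF10A-named parental list had no cluster between 128192260 and 128282301, a stretch with 8 MCFDCIS-named parental clusters. The first of the 3, chr8:128216701-128224560 (7860 bp), was also in the MCF10A-named D4 list, at rank 25 of 138, and had rank 353 of 651 among MCFDCIS-named parental clusters.

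Of the 122 distinct regions, 100 lay in an annotated gene and 22 between genes, and 35 overlapped an exon. Regions within 1 kb of a coding TSS numbered 3, counting the alternative POU5F1B start. Of 20 noncoding genes listed for the domain, 12 were found by name in the annotation. A cluster lay within 100 kb of the start site for 5 of these 12 in the MCFDCIS-named D4 list and for 10 of 12 in each of the other 3. The choice of a domain dense in clusters fixes these counts. Over all protein-coding genes the shares were 1.54% (MCFDCIS-named D4), 6.19% (MCFDCIS-named parental), 1.00% (MCF10A-named D4) and 4.03% (MCF10A-named parental). No share was counted over all noncoding genes. LINC00861 and LINC00824, towards the ends of the domain, had no cluster within 100 kb in any list, the closest being 139.6 kb from LINC00861 in the MCFDCIS-named parental list.

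The members of the MCFDCIS-named D4 list were few and scattered. Besides the clusters near LRATD2, POU5F1B and MYC already given, they were the 10 bp chr8:127609801-127609810 in a PCAT1 intron, with a score of 9.62 and rank 45, and chr8:128143851-128144660 in CASC19, with 7.36 and rank 88. The 10 bp region was also in both MCF10A-named lists, at 8.38 in the D4 list and 19.3 in the parental list. The other 4 were in no other list.

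The median width of clusters was larger in the domain than elsewhere in each list. It was 810 bp (full range 10 to 1160) in the MCFDCIS-named D4 list and 1410 bp (95% interval 460 to 2960) in the MCFDCIS-named parental list. The MCF10A-named D4 list had 660 bp (10 to 5510) and the MCF10A-named parental list 160 bp (60 to 710). In the rest of each list the median was 60 bp. Clusters over 500 bp made up 60%, 60.7%, 52.4% and 43.3% of the domain, against 23.4%, 15.1%, 23.9% and 18.2% of the rest. Of all clusters over 5 kb, the domain held 0 of 5, 18 of 33, 7 of 11 and 11 of 25 in the same order of lists. In the MCFDCIS-named D4 list the mean went the other way, with 610 bp in the domain against 720.6 bp in the rest. For the MCFDCIS-named D4 list, with 5 members, the full range is given, and it reaches below the median of the rest. So does the interval of the MCF10A-named D4 list, and that of the MCF10A-named parental list begins at it. These intervals cover the number of clusters only and make no test of domain against rest.

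Clusters over 500 bp were not particular to the MYC domain, while those over 5 kb were more frequent there in all but the MCFDCIS-named D4 list. The other regions dense in clusters, 73 to 75 Mb of chromosome 10 and 17 to 19 Mb of chromosome 17, had median widths of 1260 and 1060 bp among MCFDCIS-named parental clusters, and of 560 and 910 bp among MCF10A-named parental clusters. In the D4 lists they were 910 and 635 bp (MCFDCIS-named) and 10 and 1035 bp (MCF10A-named). Clusters over 5 kb were 4 of 41 and 2 of 31 (MCFDCIS-named parental) and 3 of 45 and 2 of 32 (MCF10A-named parental). In the D4 lists they were 1 of 7 and 1 of 8 (MCFDCIS-named) and 1 of 17 and 1 of 12 (MCF10A-named). Outside these 3 regions only 17.7%, 8.11%, 15.9% and 10.1% of clusters were over 500 bp in the MCFDCIS-named D4, MCFDCIS-named parental, MCF10A-named D4 and MCF10A-named parental lists.

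**Figure D2:**
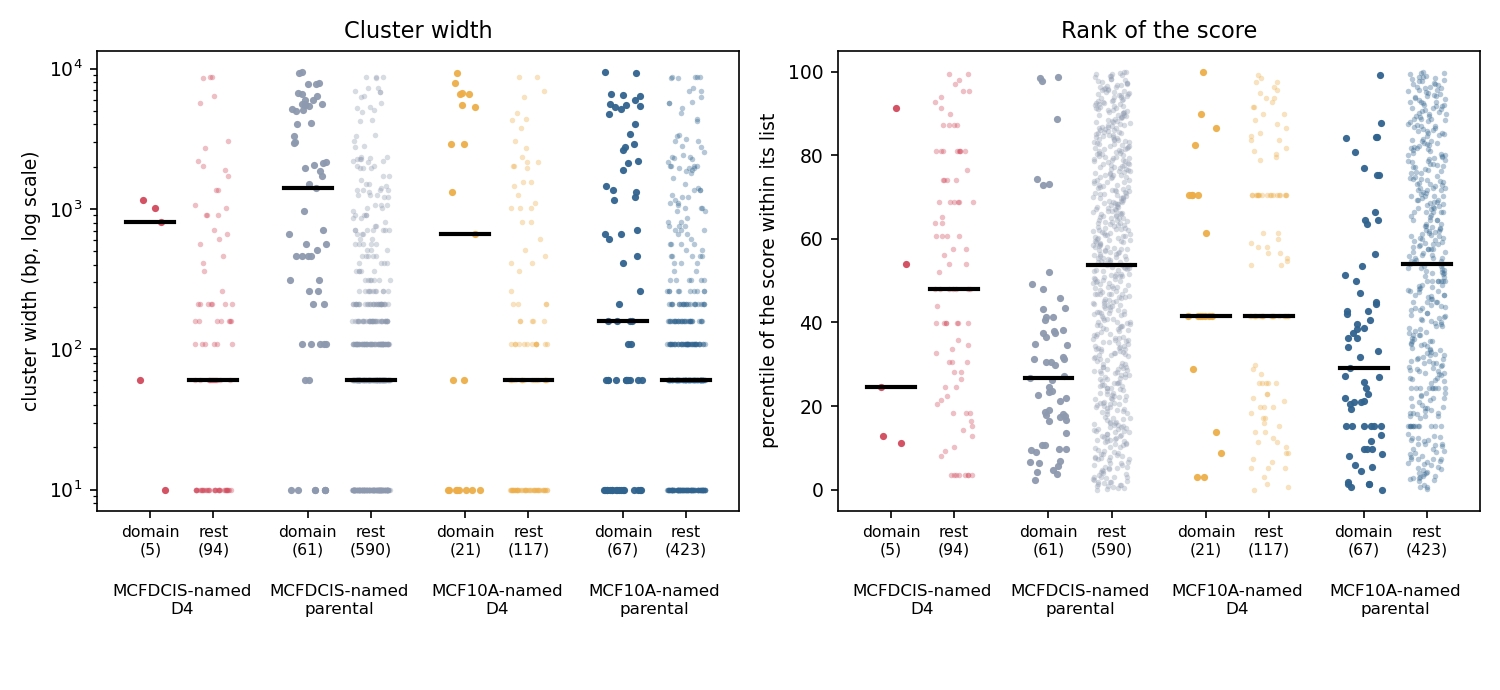
Width in bp on a log scale (left) and percentile of the score within its list (right) for each cluster of the domain and of the rest of each list, with the number of clusters in parentheses and the median as a black line. Domain medians lie above the 60 bp of the rest for width, and below the rest for the percentile in 3 of the lists; in the MCF10A-named D4 list the medians are equal at 41.6.

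In 3 of the lists most members scored low for their list; the MCF10A-named D4 list was the exception. The median percentile in the domain was 24.5 (full range 11.2 to 91.3) in the MCFDCIS-named D4 list against 48.0 in the rest. It was 26.8 (95% interval 19.2 to 34.6) in the MCFDCIS-named parental list against 53.7. The MCF10A-named D4 list gave 41.6 (41.6 to 70.4) against 41.6, and the MCF10A-named parental list 29.1 (20.9 to 38.8) against 54.1. Only the parental intervals lay wholly below the median of the rest. These intervals cover the number of clusters only and make no test of domain against rest. Low ranks in the parental lists were not particular to the MYC domain. The dense regions of chromosomes 10 and 17 had median percentiles of 23.7 and 26.4 (MCFDCIS-named parental) and 35.2 and 38.9 (MCF10A-named parental). In the D4 lists they were 35.7 and 22.4 (MCFDCIS-named) and 41.6 and 63.5 (MCF10A-named). With 10 bp clusters left out before ranking, the MCF10A-named D4 median was 66.5 in the domain (13 clusters) against 49.4 in the rest (73 clusters), and in the other 3 lists the domain stayed below the rest. The lowest score of the MCF10A-named parental list, 7.0, belonged to a member, the 10 bp chr8:128500851-128500860. Each list also had 1 member among its 10 highest scores, as given above. Many scores were tied: 4 of 5 (80%), 18 of 61 (29.5%), 19 of 21 (90.5%) and 41 of 67 (61.2%) members shared a score with another cluster of their list. In the rest of the lists the shares were 74.5%, 30.7%, 71.8% and 44.9%, so ties were common there too. Ranks in the MCF10A-named D4 list are therefore coarse.

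In the 3 lists with members over 5 kb, these had a higher median rank than narrow members, which was not so for clusters of that width elsewhere in the same lists. In the MCFDCIS-named parental list members over 5 kb had a median percentile of 46.9 against 20.5 for those up to 500 bp, whereas in the rest of that list the medians were 33.8 over 5 kb and 56.3 up to 500 bp. The MCF10A-named parental list gave 53.6 and 29.5 in the domain, against 31.1 and 58.2 in the rest. In the MCF10A-named D4 list the medians were 82.5 for the 7 members over 5 kb and 41.6 for those up to 500 bp, against 38.5 and 41.6 in the rest, where 4 clusters were over 5 kb. These width classes were chosen after the data were seen.

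Most D4 members were also parental clusters under the MCF10A name, and none were under the MCFDCIS name. In the MCFDCIS-named pair 0 of 5 D4 members had a parental counterpart (0%, exact 95% interval 0 to 52.2), against 65 of 94 in the rest of the D4 list (69.1%, 58.8 to 78.3), with 65.7% over that whole list. In the MCF10A-named pair 14 of 21 were shared (66.7%, 43.0 to 85.4), against 53 of 117 in the rest (45.3%, 36.1 to 54.8), with 48.6% over the whole list. These intervals cover the number of clusters only, and the domain had 5 clusters in the MCFDCIS-named pair. They make no test of domain against rest. In the other dense regions the MCFDCIS-named pair shared 4 of 7 D4 clusters on chromosome 10 and 4 of 8 on chromosome 17. The MCF10A-named pair shared 8 of 17 and 10 of 12. Counting a cluster in either parental list, 1 of 5 MCFDCIS-named D4 members and 17 of 21 MCF10A-named D4 members had a parental counterpart. With only clusters at or above the median score of their list, the MCF10A-named share was 25% (4 of 16). In the other direction, 0 of 61 MCFDCIS-named parental members were in the D4 list, against 11.0% in the rest of the parental list. Under the MCF10A name 14 of 67 parental members were (20.9%), against 12.5% in the rest. Wherever clusters overlapped between lists, their ends were identical.

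**Figure D3:**
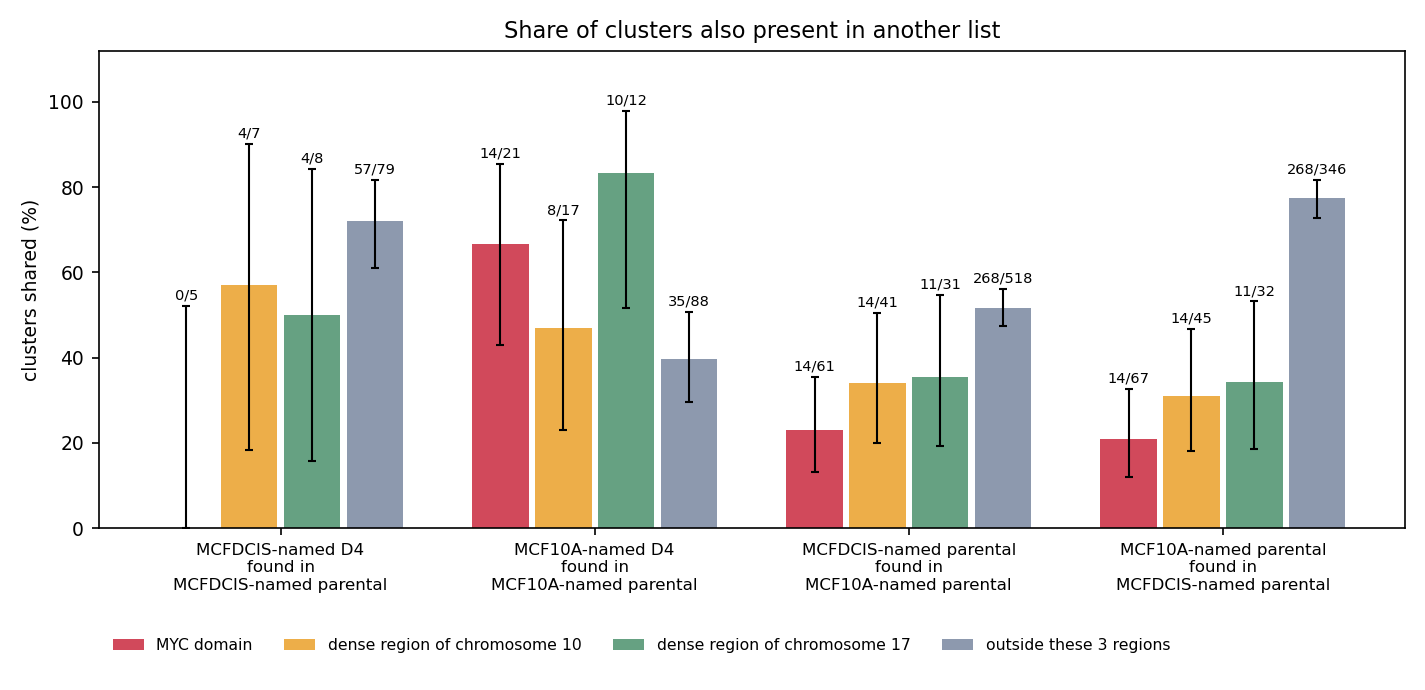
Percent of the clusters of one list that are also in another, for the MYC domain, the other 2 dense regions and the clusters outside these 3 regions, with exact 95% intervals and the number shared over the number of clusters. The MYC domain has 0 of 5 in the MCFDCIS-named D4 list, 14 of 21 in the MCF10A-named D4 list, and 14 shared regions between the parental lists.

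The parental lists shared fewer clusters in the domain than elsewhere. They had 14 regions in common, 22.95% (13.2 to 35.5) of the 61 in the MCFDCIS-named list and 20.9% (11.9 to 32.6) of the 67 in the MCF10A-named list. In the rest they had 293 in common, which was 49.7% of the MCFDCIS-named and 69.3% of the MCF10A-named clusters. On chromosome 10 the shares were 34.1% and 31.1% and on chromosome 17 they were 35.5% and 34.4%, so the intervals of the 3 dense regions overlapped. With only clusters at or above the median score of their list, a setting added after the data were seen, 5 regions were shared, 62.5% of 8 MCFDCIS-named and 29.4% of 17 MCF10A-named parental members. The D4 lists had 1 region of the domain in common, the 10 bp PCAT1 cluster, which is 20% of the MCFDCIS-named and 4.76% of the MCF10A-named members. Of the 122 regions, 92 (75.4%) were in 1 list, 28 in 2, 2 in 3 and 0 in all 4, against 379 of 775 (48.9%) in 1 list elsewhere.

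The shared parental members were wider and ranked higher than the other parental members. In the MCFDCIS-named parental list the 14 shared members had a median width of 3060 bp and a median percentile of 40.9, against 960 bp and 23.5 for the 47 others. In the MCF10A-named parental list the values were 3060 bp and 60.5, against 60 bp and 24.4 for the 53 others. The width of 3060 bp is the same by construction, since shared regions have identical ends. The same contrast held outside the domain, where the median percentile of shared clusters was 65.2 against 40.9 for the others (MCFDCIS-named) and 64.5 against 36.0 (MCF10A-named). The 14 regions in both MCF10A-named lists had a lower median width of 60 bp, though 6 of them were over 500 bp and 4 over 5 kb. Their median percentile was 41.6 in the D4 list and 23.2 in the parental list. The region at CCAT2 was the single one in both sets. Each parental list had long stretches without clusters where the other had several. The MCFDCIS-named parental list had none for 264.5 kb beyond the LRATD2 promoter, where the MCF10A-named parental list had 7 and each D4 list had 2. The MCF10A-named parental list had none for 94.4 kb from 128792160 to 128886551, in the first part of PVT1, where the MCFDCIS-named parental list had 5.

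Binding motifs were searched in the central 500 bp of each cluster on both strands, and a match is a description of letters, not of a bound factor. The AP-1 motif TGANTCA, recognised by FOS and JUN proteins, was in 0%, 24.6%, 28.6% and 25.4% of the members of the MCFDCIS-named D4, MCFDCIS-named parental, MCF10A-named D4 and MCF10A-named parental lists, against 22.3%, 38.8%, 32.5% and 37.1% in the rest. It was in 16.2% of 5437 tiles of 500 bp of the domain that held no cluster. The TEAD motif GGAATG, recognised by the Hippo pathway's TEAD factors, was in 0%, 26.2%, 23.8% and 29.9% of members, against 28.7%, 38.3%, 25.6% and 40.2% in the rest and 25.3% of tiles. For both motifs the interval of the parental members took in the share of the tiles. For AP-1 it ended at 37.3% (MCFDCIS-named) and 37.5% (MCF10A-named), below the rest in the first list only, and for TEAD it ended at 39.1% and 42.3% and took in the share of the rest in both lists.

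The glucocorticoid response element, a palindrome of GNACA half-sites with a 3-base spacer bound by the receptor for the hydrocortisone in the medium, was in 0%, 3.28%, 0% and 2.99% of members, against 8.51%, 9.49%, 2.56% and 11.1% in the rest and 0.809% of tiles. It was in the same 2 regions in both parental lists, chr8:128093701-128095810 in CASC19 and PRNCR1, and chr8:128513101-128513560 between CASC8 and MYC. The second had rank 499 of 651 among MCFDCIS-named and rank 77 of 490 among MCF10A-named parental clusters. The interval of the MCF10A-named parental members ended at 10.4%, below the share in the rest of that list, and in both parental lists it took in the share of the tiles. The E-box CACGTG, the site of MYC with its partner MAX, was in 0%, 9.84%, 14.3% and 7.46% of members, against 10.6%, 7.46%, 6.84% and 6.62% in the rest and 4.06% of tiles. One of these was the LRATD2 promoter cluster. The RUNX motif TGTGGT was in 40% (2 of 5), 27.9%, 33.3% and 32.8% of members against 29.3% of tiles, and the CTCF core CCACNAGG in 0%, 6.56%, 0% and 5.97% against 5.52%. In the rest of the lists RUNX was in 30.9%, 37.6%, 35.9% and 36.4%, and the CTCF core in 8.51%, 7.63%, 4.27% and 9.46%. For both motifs the interval of each list took in the share of the tiles. With 0 of 5 and 0 of 21 D4 members, the CTCF intervals reached 52.2% and 16.1%, so a share below the tiles could not have been seen. The intervals of all these motifs cover the number of clusters only and make no test of domain against rest or tiles.

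**Figure D4:**
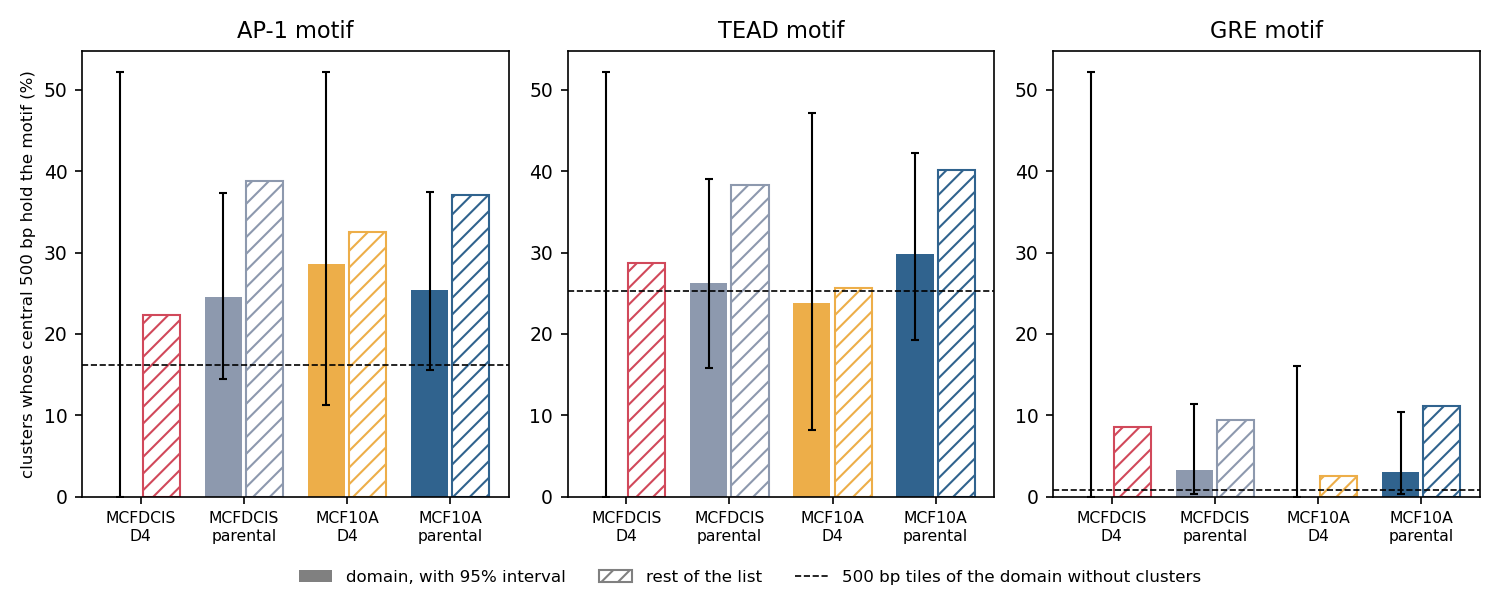
Percent of clusters whose central 500 bp hold the AP-1, TEAD or glucocorticoid response element (GRE) motif, for the domain (filled, with exact 95% interval) and the rest of each list (hatched), with the share of tiles of the domain without clusters as a dashed line. Domain bars lie below those of the rest in all 4 lists, with 24.6% and 25.4% for AP-1 in the parental lists against 38.8% and 37.1%.

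The median GC content of the same windows was 42.6%, 42.0%, 41.4% and 42.0% in the domain, against 49.2%, 47.6%, 42.4% and 48.8% in the rest and 40.2% in the tiles. The promoter cluster of LRATD2 was the most GC-rich member at 58.4%, and that of MYC had 55.6%. Motifs rich in particular bases depend on GC content, and its part in the motif shares was not tested. A larger share of members than of other clusters is over 500 bp, so the central 500 bp leaves out part of a larger share of members. The part of width in the motif shares was not tested either.

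Lists of genes that work with MYC or are known targets of it were counted for comparison. A cluster lay within 100 kb of the start site for 3 of 3 coding genes of the domain in each list, against 1.54%, 6.19%, 1.00% and 4.03% of 18872 protein-coding genes in the MCFDCIS-named D4, MCFDCIS-named parental, MCF10A-named D4 and MCF10A-named parental lists. Within 25 kb the counts were 1, 3, 2 and 3 of 3, against 0.498%, 1.85%, 0.334% and 1.14% of protein-coding genes. The choice of the domain fixes the counts for its own genes. Of 13 genes of the MYC, MAX and MXD network, 1, 1, 1 and 2 had one. MYC itself was the single gene in 3 lists, joined in the MCF10A-named parental list by MXD3, a MAX partner that opposes MYC, at 90.9 kb. Of 16 MYC target genes 0, 2, 1 and 0 had one. These were NME1, a nucleoside diphosphate kinase gene, at 0.01 kb in the MCFDCIS-named parental and MCF10A-named D4 lists, and FBL, the fibrillarin gene of the nucleolus, at 32.1 kb in the MCFDCIS-named parental list. With lists of 13 and 16 genes each gene weighs heavily in a share, and these counts were not tested against those over all protein-coding genes.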

How the data were processed

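AIB1 ChIP-seq was represented by 4 lists of clusters, 1 per group of 3 ChIP samples and 1 input. Chromatin was crosslinked with 1.2% formaldehyde, per the labels' protocols, and ChIP was normalized to cell lysate input, per the series' design text. Positions are on hg19 (GRCh37), per the submitters' processing notes. No source used here gives the aligner, the caller, its threshold or how samples were pooled. The deposited score of each cluster is the authors' own value and was ranked within its list, as the percent of the list with a lower score (ties counted by their middle). No value column was left unused (0).

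Clusters overlapping the domain were compared with the rest of the same list. Sharing meant an overlap of at least 1 bp. Shares have exact (Clopper-Pearson) 95% intervals, and medians have 95% intervals from order statistics. For the 5 MCFDCIS-named D4 members the full range is given in place of the latter. Both kinds of interval cover the number of clusters only, and clusters in several lists count in each. Genes came from GENCODE release 44 lifted to GRCh37. Motifs were searched in the GRCh37 sequence, and sequences are not printed. No test was planned, because each group has a single list. The named clusters were, in each list, the 5 with the highest score, the 3 widest and those nearest to each coding gene, those in 3 or 4 lists, and every cluster of a list with 10 or fewer in the domain; those at its edges, the lowest-scored member, those with a glucocorticoid response element and the best of the PVT1 clusters in both parental lists are named beside results they belong to. The members, gene lists and motifs were chosen with earlier results of these data known. The procedures were tested on planted clusters. Python 3.11.15, numpy 2.4.6, SciPy 1.17.1, pysam 0.24.0 and matplotlib 3.10.9 were used.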

Additional observations from a re-analysis of the deposited data

How the results depend on the processing

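Each value rests on 1 list per group, and depth is unknown. No paired analysis was possible because the lists hold no replicate columns, and for the same reason no replicate could be left out. With only clusters at or above the median score of their list, the domain held 2 (MCFDCIS-named D4), 8 (MCFDCIS-named parental) and 17 (MCF10A-named parental) clusters, the share of MCF10A-named D4 members in the parental list was 25% (4 of 16), and the median widths were 7210 bp (MCFDCIS-named parental) and 1160 bp (MCF10A-named parental). Without 10 bp clusters the MCF10A-named D4 list had 13 members, and with the domain narrowed to 1.5 Mb around POU5F1B and MYC the MCFDCIS-named D4 list had 3. Merging clusters less than 1 kb apart and a 1 kb tolerance moved no count or share past its limit. Asking for identical ends could change nothing, because overlapping clusters always had identical ends. Leaving out 10 bp clusters before ranking gave a median percentile of 66.5 in the MCF10A-named D4 list, inside its interval, and of 20.2, 24.6 and 22.8 in the MCFDCIS-named D4, MCFDCIS-named parental and MCF10A-named parental lists.

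A pair of settings for the overlap between line names was chosen after seeing the data. At or above the median score 62.5% (5 of 8) of the MCFDCIS-named parental members were in the MCF10A-named parental list. Without 10 bp clusters the D4 lists shared 0% of their members in either direction.

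Motif shares depended on the window. In the central 200 bp the AP-1 share was 9.84% (MCFDCIS-named parental), 9.52% (MCF10A-named D4) and 8.96% (MCF10A-named parental), that of the glucocorticoid response element 0% in both parental lists, and that of the E-box 0% (MCFDCIS-named parental). The share of TEAD was 6.56% and of CTCF 1.64% among MCFDCIS-named parental members, 7.46% and 1.49% among MCF10A-named parental members, and that of RUNX 9.52% (MCF10A-named D4) and 19.4% (MCF10A-named parental). Over whole clusters the MCFDCIS-named parental list gave AP-1 49.2%, E-box 27.9%, TEAD 47.5%, CTCF 26.2% and RUNX 54.1%, the MCF10A-named D4 list TEAD 52.4% and RUNX 57.1%, and the MCF10A-named parental list CTCF 16.4%. A wider or narrower window holds more or fewer letters by construction. No shares of the rest or of tiles are given for these windows. The values therefore show no difference between domain and rest, and cannot be set against the shares for the central 500 bp.

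Within 25 kb in place of 100 kb, the MCFDCIS-named D4 list had 1 coding gene of the domain, 1 noncoding gene and 0 network genes, the MCF10A-named D4 list 5 noncoding genes, the MCF10A-named parental list 1 network gene and the MCFDCIS-named parental list 1 MYC target.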
